A study of Mus musculus with 401 samples.

Results

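The 40 libraries described here are the cumulus cells of young and of calorie-restricted mice: 15 Young and 25 CR cumulus libraries of the first set of samples, chosen by their labels alone, out of 401 libraries in the series and 200 cumulus libraries in all. The study compared single oocytes and the cumulus cells around them between ages and diets, in 2 independent sets of samples. All mice of both groups were B6D2F1 (C57BL/6 x DBA/2) females that had been treated for hyperovulation, and each library held the pooled cumulus cells of 1 fully grown follicle whose oocyte was at the germinal vesicle stage. The Young mice were 2 months old and fed ad libitum (AL), and the CR mice were 9 months old after adult-onset, stepwise calorie restriction that reached 40%. The study's methods add that CR mice were housed singly and fed once a day. The groups therefore differed in age and in diet, and these cannot be told apart in a comparison of Young with CR alone. The 9-month AL libraries of the same set (Middle, n = 15, from 4 mouse labels) are given beside the results for that reason, and 14-month AL libraries (Old, n = 16) are shown where levels are plotted. The sources used here do not give the hormone preparation used for each mouse.

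Cumulus cells are the granulosa cells that surround the oocyte. They pass nutrients, cyclic nucleotides and metabolites to it through gap junctions, and they receive growth factors from it in return. The surge of luteinizing hormone makes them lay down a hyaluronan matrix and expand, a step that had not been triggered in these complexes, which were collected after priming with gonadotropin.

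The Young libraries came from 2 mice, Young1 (3 libraries) and Young2 (12 libraries), and the CR libraries from 3 mice, CR1 (3), CR2 (9) and CR3 (13). Libraries of 1 mouse share their animal, so the p-values below measure the spread between follicles and only in part that between mice. An exact permutation test over 5 mice has 10 arrangements and cannot give a p under 0.1. Total counts ranged from 986123 to 1412244 per Young library (median 1201007) and from 1568223 to 2501005 per CR library (median 2019007). The 2 groups did not overlap in depth. Every CR library was also deeper than every Middle library (848243 to 1269680) and every Old library (1051482 to 1540270). Comparisons of CR with Middle mice therefore carry a difference in depth too, and were not run at equal depth. The median library held 18492 genes with a count in Young and 19863 in CR. The 15 cumulus and granulosa markers examined (among them Amh, Foxl2, Fshr and Inha) summed to medians of 21544 CPM (counts scaled to a common library size) in Young and 19262 CPM in CR libraries, against 3.48 and 3.35 CPM for 15 oocyte markers. Oocyte markers reached 182.9 CPM in the highest Young library and 424 CPM in the highest CR library.

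Principal components of log2 CPM described the libraries first. PC1 held 12.6% of the variance, and its mean score was -10.1 ± 30.9 (SD, n = 15) in Young and 6.08 ± 33.2 (SD, n = 25) in CR libraries, a difference not beyond the spread between libraries (two-sided permutation test, p = 0.132). PC2 held 8.45%, with scores of -26.1 ± 10.0 in Young and 15.7 ± 21 in CR libraries (p = 1e-05, the smallest that 100000 resamples can give). Over means per mouse the exact p was 0.1 for PC1 and 0.2 for PC2. The libraries of CR1 and CR2 averaged 33.1 and 32.8 on PC2, those of CR3 -0.205, and those of Young1 and Young2 -21.2 and -27.4, so CR3 lay between the other CR mice and the Young mice.

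**Figure D1:**
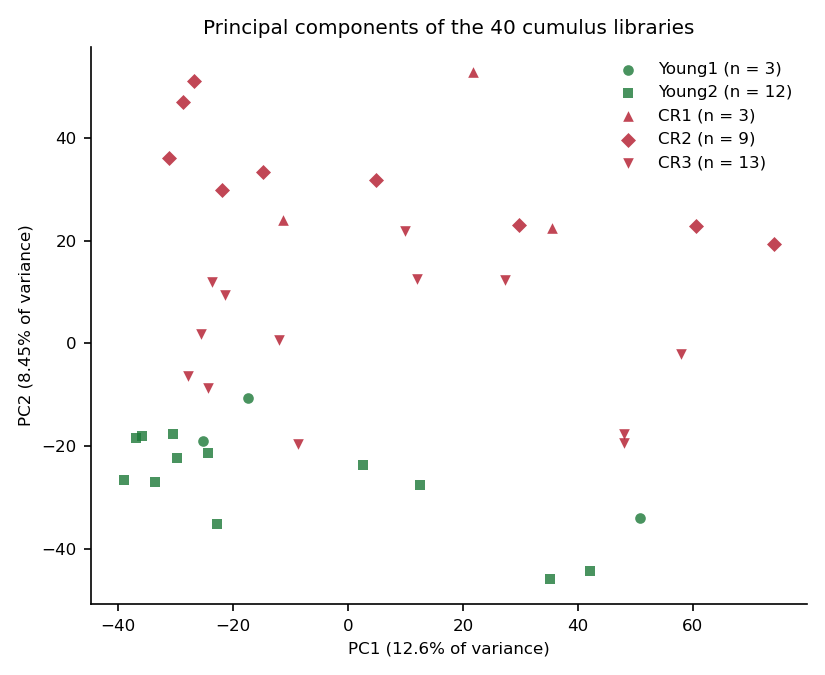
Each point is 1 of the 40 cumulus libraries on PC1 (12.6% of the variance) and PC2 (8.45%) of log2 CPM, with the colour giving the group (green Young, red CR) and the shape the mouse. Young libraries lie at the bottom of PC2, between -45.9 and -10.6, and CR libraries between -19.5 and 52.9, with those of CR3 nearest to the Young libraries.

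Of 24672 genes tested between Young and CR cumulus cells, 1994 passed an adjusted p of 0.05 in edgeR's quasi-likelihood test (8.08% of the genes tested), 1232 of them higher in CR (4.99%) and 762 lower (3.09%). Fold changes below are CR over Young on the log2 scale, so that a positive value is a higher level in CR. The changes were mostly small: the median log2 fold change was 0.62 among genes called higher and -0.53 among genes called lower, and 375 and 172 of them changed by at least 1. Over all genes tested the median was 0.08. The split of calls depended on the method. By limma-voom with the mouse as a random effect 532 were higher and 1219 lower, and the median of all genes was -0.11. On CR counts drawn down to the depth of the Young libraries 1001 were higher and 924 lower. With all cumulus groups in 1 fit 1584 were higher and 905 lower.

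Nearly all calls were lost without the mouse Young2, which gave 12 of the 15 Young libraries. Without it 3 Young libraries remained and 2 genes passed, Bhlhe40 and Homer1, while 1932 of the 1994 genes kept their sign and 796 kept it with an unadjusted p under 0.05. Without any 1 of the other 4 mice, between 1334 and 2784 genes passed, not all of them among the 1994. Of the 1994, 1583 passed again in the same direction without CR1, 1125 without CR2, 1589 without CR3 and 1409 without Young1. In all 4 of these fits 817 did. On counts summed per mouse, with 2 sums against 3, edgeR called 0 genes (2708 at an unadjusted p under 0.05), and DESeq2 was not run on these sums. A call described below as lost did not pass in the alternative named, and Young2 and the sums per mouse, which end nearly all calls, are not repeated at each gene. "The voom fit" is limma-voom with the mouse as a random effect, "the Young depth" a fit on CR counts drawn down to the depth of the Young libraries, and "the length and GC correction" a fit with each library corrected for both. The means of the 3 CR mice lay all above or all below those of both Young mice for 33% of the genes tested, and in the direction of the call for 1793 of the 1994 genes called.

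**Figure D2:**
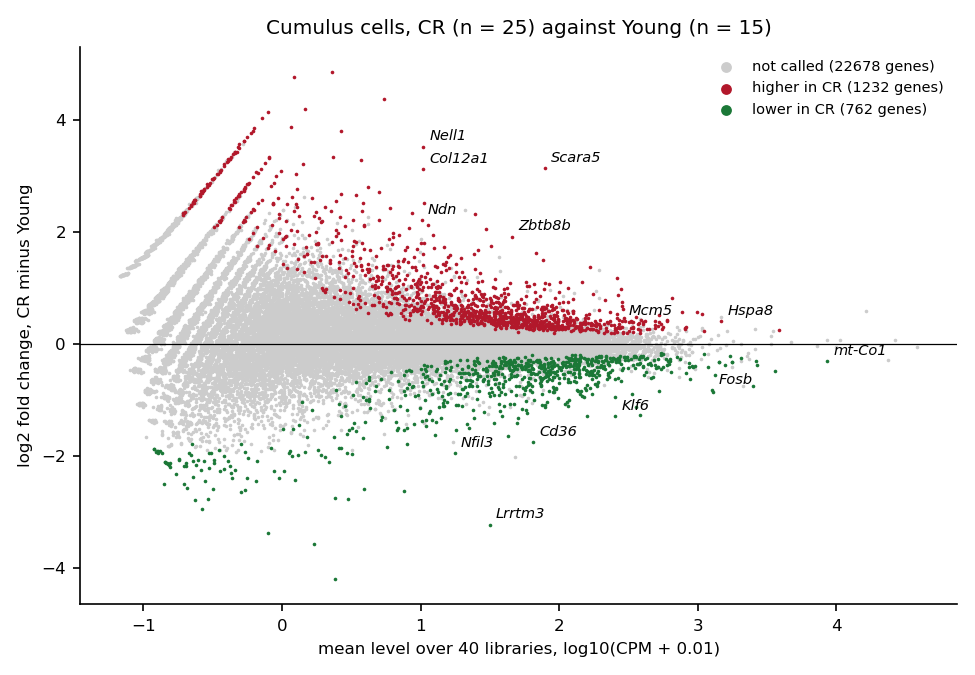
Each point is 1 of 24672 genes, with its mean level over the 40 libraries (log10 scale, CPM + 0.01) on the horizontal axis and the log2 fold change, CR minus Young, on the vertical axis. Red points are the 1232 genes called higher in CR, green points the 762 called lower and grey points the rest; Scara5 and Lrrtm3 stand farthest from 0 among genes of their level.

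The largest rises at a mean of 10 CPM or more included genes of the extracellular space and the cell surface. Scara5, a scavenger receptor that takes up ferritin, separated the groups: Scara5 ran from 6.02 to 28.03 CPM (median 12.9) in Young libraries and from 30.8 to 255 CPM (median 112) in CR libraries (log2 fold change 3.15 ± 0.29 (SE), adjusted p = 2.03e-09). No CR library was as low as the highest Young library. The means per mouse were 21.1 and 11.6 CPM in the Young mice and 122, 181 and 73.9 CPM in the CR mice. In the Middle and Old mice of the set, all fed AL, they were between 10.1 and 22.2 CPM. Single Middle and Old libraries reached 38.3 and 40.5 CPM, above the lowest CR libraries. The fold change was 2.52 without Young2. Between 9-month mice of the 2 diets it differed by 2.86, adjusted p = 1.2e-08 (CR minus Middle), and between Young and Middle mice by 0.28, adjusted p = 0.63 (Middle minus Young). These 3 comparisons share libraries, as do all values given below for Middle mice.

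Nell1, a secreted glycoprotein with a role in bone formation, was near the limit of detection in Young libraries: Nell1 ran from 0 to 6.87 CPM (median 0.753) in Young libraries and from 0.522 to 72.3 CPM (median 10.6) in CR libraries (log2 fold change 3.53 ± 0.62 (SE), adjusted p = 0.000192). The groups overlapped, with 15 of 25 CR libraries above every Young library. Col12a1, a collagen that binds to fibrils, rose from a median of 0.755 to 14.3 CPM (3.13, adjusted p = 0.000237), and its fold change was 2.43 without Young2. Necdin, an imprinted gene of the MAGE family, was also higher: Ndn ran from 0 to 6.13 CPM (median 2.66) in Young libraries and from 5.93 to 34.1 CPM (median 12.6) in CR libraries (log2 fold change 2.22 ± 0.30 (SE), adjusted p = 4.61e-06). For Ndn 24 of 25 CR libraries exceeded all Young libraries. The formin Fmnl3, which shapes actin filaments, rose from a median of 3.54 to 12.96 CPM (2.13, adjusted p = 3.16e-06), with 22 of 25 CR libraries above all Young libraries.

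Further rises of this size were found in Cacna1c, a pore subunit of L-type calcium channels (1.96, adjusted p = 8.83e-05), in the zinc finger gene Zbtb8b (1.92, adjusted p = 5.67e-05), in Srgap3, a GTPase-activating protein for Rac (1.69, adjusted p = 0.00512, lost in the voom fit), and in Nrbp2 (1.81, adjusted p = 0.000181). The genes 2810039B14Rik (2.33, adjusted p = 4.81e-05), 2900026A02Rik (1.72, adjusted p = 0.00636, lost in the voom fit) and Gm14226 (1.62, adjusted p = 0.0116, lost in the voom fit) are listed without an assigned function. Among these 12 genes, all 3 CR mice averaged above both Young mice by the way they were chosen. Between Middle and CR mice 8 of the 12 were called, and between Young and Middle mice 0, where 3.6% and 1.46% of all genes tested were called. The 12 were chosen on the same CR and Young libraries.

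The largest fall among the genes chosen at a mean of 10 CPM or more was that of Lrrtm3, a synaptic adhesion protein with leucine-rich repeats. Lrrtm3 ran from 12.9 to 209.9 CPM (median 56.1) in Young libraries and from 0 to 47.6 CPM (median 2.77) in CR libraries (log2 fold change -3.22 ± 0.46 (SE), adjusted p = 8.47e-06). The mice differed widely within groups, with 14.5 and 85.7 CPM in the Young mice and 1.43, 0.501 and 14.01 CPM in the CR mice, so Young1 and CR3 were nearly level and 18 of 25 CR libraries were below every Young library. Without Young2 the fold change was -0.92. Middle and Old mice averaged 42.8 to 60.5 CPM (CR minus Middle, -2.84, adjusted p = 3.89e-05; Middle minus Young, -0.39, adjusted p = 0.61).

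Cd36 takes up long-chain fatty acids. Cd36 ran from 54.3 to 315 CPM (median 86.9) in Young libraries and from 6.26 to 92.5 CPM (median 37.3) in CR libraries (log2 fold change -1.74 ± 0.27 (SE), adjusted p = 2.81e-05), and 22 of 25 CR libraries lay below all Young libraries. Its means were 92.97 and 122 CPM in the Young mice and 29.2, 12.5 and 50.9 CPM in the CR mice. Nfil3, a bZIP repressor linked to the circadian clock, fell from a median of 33.2 to 6.89 CPM (-1.94, adjusted p = 1.16e-05), and Dusp16, a phosphatase of JNK and p38 kinases, from a median of 68.7 to 18.9 CPM (-1.65, adjusted p = 5.15e-05). Gm15441, a transcript at the Txnip locus, fell from a median of 78.2 to 26.6 CPM (-1.32, adjusted p = 3.57e-05) and was lower than all Young libraries in 23 of 25 CR libraries. Reads were not stated to be counted by strand, so Gm15441 and Txnip cannot be told apart where they overlap.

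Other falls among the 12 largest were in Crabp2, which binds retinoic acid inside the cell (-1.63, adjusted p = 0.000745), Cited2, a partner of CBP and p300 (-1.50, adjusted p = 0.000141), Amotl2, a scaffold that binds YAP (-1.41, adjusted p = 0.00112), Maff, a small Maf factor (-1.53, adjusted p = 0.000391), Serpinb1a, an inhibitor of neutrophil proteases (-1.41, adjusted p = 0.000779), Ikzf2 (-1.36, adjusted p = 0.0108) and Arl13b, a GTPase of cilia (-1.31, adjusted p = 5.2e-05). Of the 12 largest falls, 5 were called between Middle and CR mice and 2 between Young and Middle mice, Maff (-1.44, adjusted p = 0.0129) and Amotl2 (-1.39, adjusted p = 0.00329). The shares of all genes called in these fits were 3.6% and 1.46%, and these falls too were chosen on the same CR and Young libraries. The 2 falls that were called without Young2 as well were those of Bhlhe40, a repressor of the clock, and Homer1. Bhlhe40 ran from 32.5 to 197 CPM (median 109.6) in Young libraries and from 25.8 to 87.4 CPM (median 54.6) in CR libraries (log2 fold change -1.08 ± 0.18 (SE), adjusted p = 6.34e-05), and Homer1, a scaffold of synapses and calcium signalling, fell from a median of 147 to 93.5 CPM (log2 fold change -0.68 ± 0.09 (SE), adjusted p = 5.02e-06). In both, the means of the CR mice were below those of the Young mice, with 172 and 147 CPM in the Young mice and 79.9, 95.5 and 95.8 CPM in the CR mice for Homer1. In Middle and Old libraries, all fed AL, Bhlhe40 ran from 12.9 to 95.6 CPM and from 32.5 to 124.3 CPM. Its means per Middle or Old mouse label were also below those of both Young mice.

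**Figure D3:**
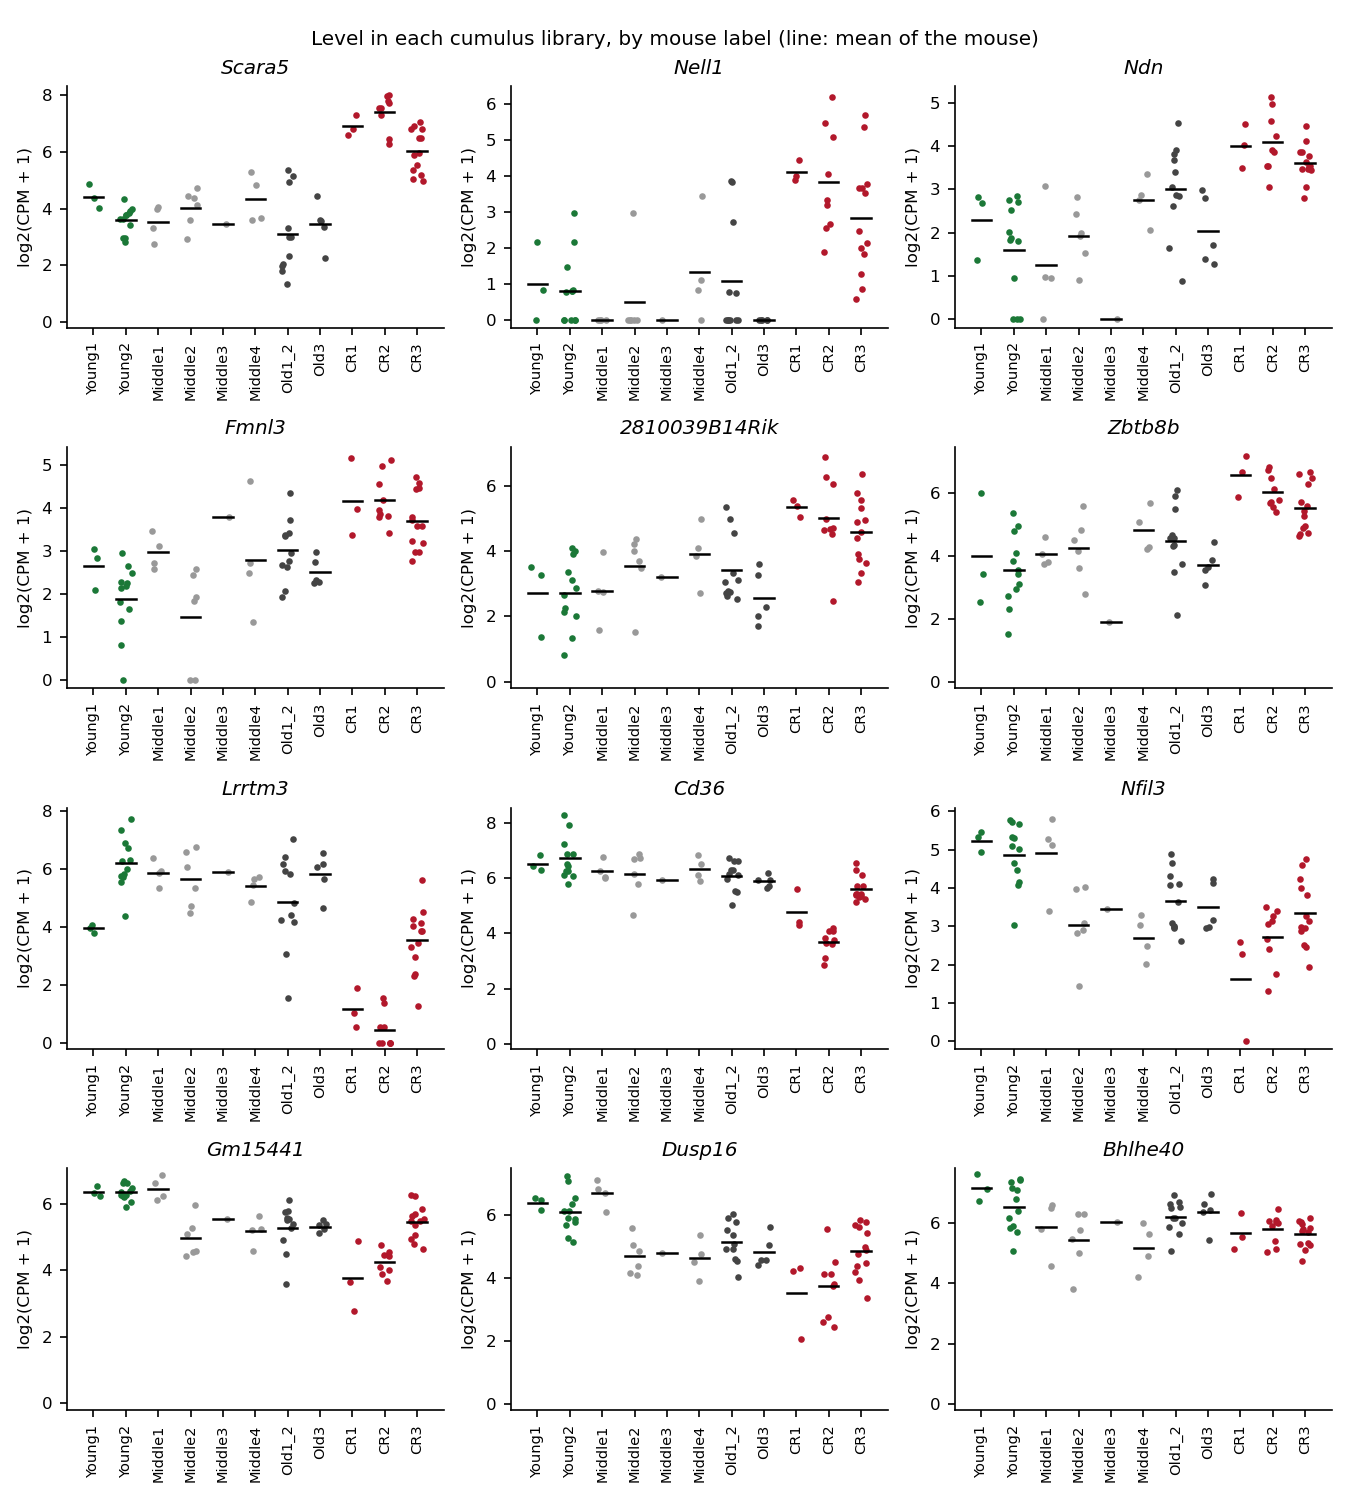
Each of 12 panels plots 1 gene, with a point for each cumulus library at log2(CPM + 1), grouped by mouse label along the horizontal axis, and a line for the mean of the mouse on this scale; green is Young, light grey Middle, dark grey Old and red CR. Scara5, Nell1 and Ndn are highest in the 3 CR mice, Lrrtm3 is at 1.43 and 0.501 CPM on average in CR1 and CR2, and Nfil3, Gm15441 and Dusp16 are also lower in Middle2, Middle3, Middle4 and the Old mice than in the Young mice. Bhlhe40 is lower on average in all Middle and Old mice than in the Young mice.

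The members of a pathway were then counted in lists of genes. Because lists overlap and were chosen with earlier results of these data known, each is described by its counts beside the share of all genes called higher (4.99%) or lower (3.09%). Fewer cells of a type and less RNA per cell cannot be told apart in such pools.

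**Figure D4:**
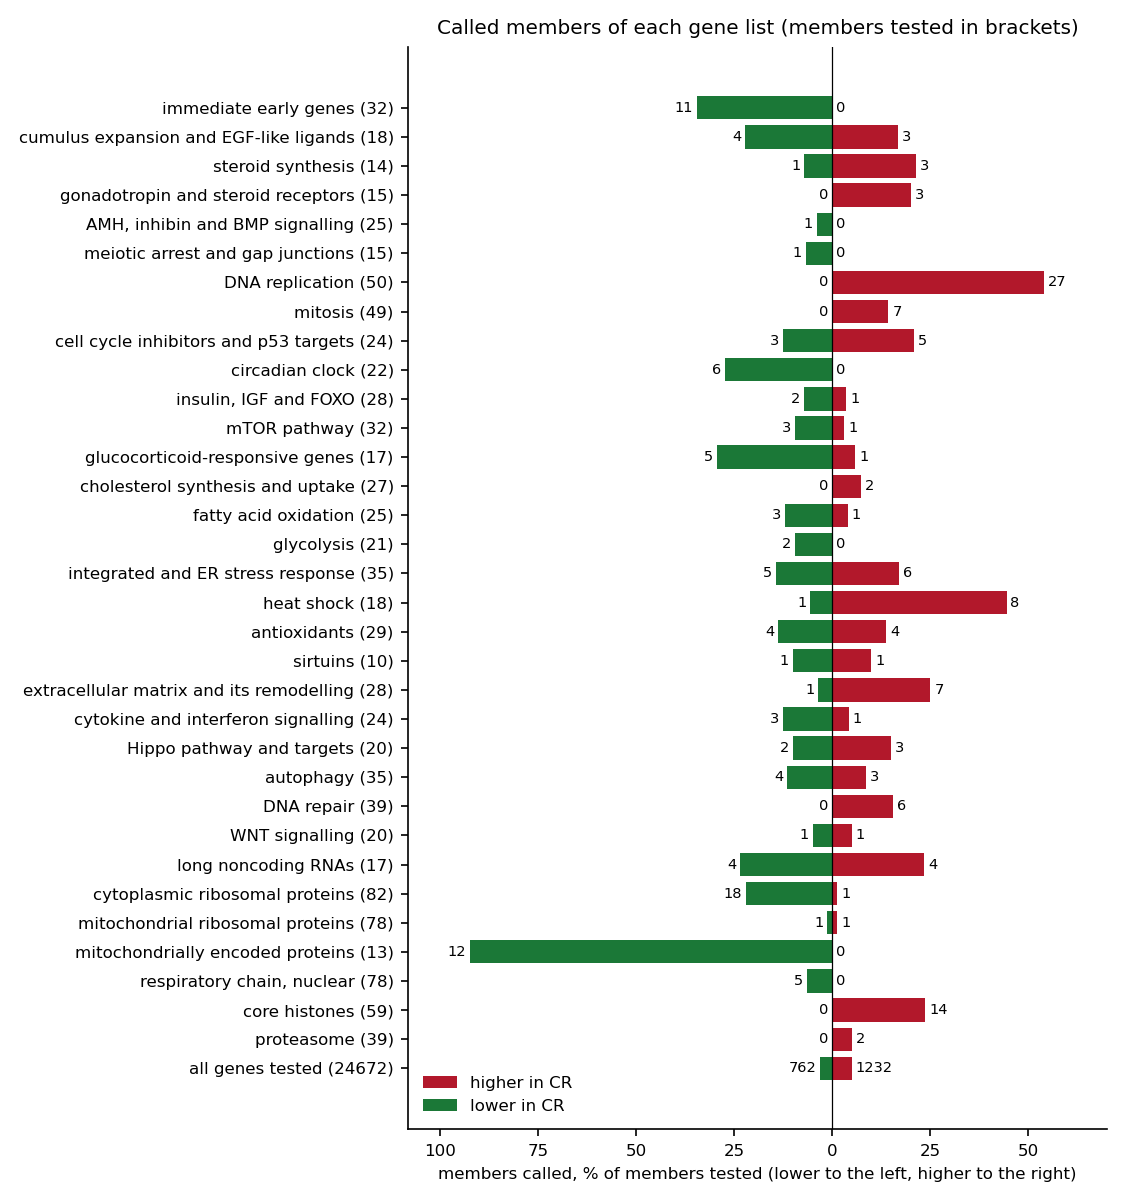
Bars give the share of the tested members of each gene list, in percent, that were called higher in CR (red, to the right) or lower in CR (green, to the left), with the number called beside each bar and the number tested in brackets. DNA replication (27 of 50 higher), heat shock (8 of 18 higher), immediate early genes (11 of 32 lower) and mitochondrially encoded proteins (12 of 13 lower) stand out from the bottom bar for all 24672 genes.

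Immediate early genes, which are transcribed within minutes of a signal, held many falls and no rise. Of 32 members, 11 were called lower and 0 higher, and the median log2 fold change was -0.82. Without 1 of the mice other than Young2, 7 to 19 members were called lower. The 3 stretches of sequence below, from before the start sites of called members, are shown because the letters TGACG, the core of the cyclic AMP response element (CRE), occur in them. Each is the 100 bases around the first match within 250 bases before the most upstream RefSeq start site (build GRCm38.p6), with every match on either strand in capitals.
Nr4a3 (chr4:48045055-48045154, plus strand): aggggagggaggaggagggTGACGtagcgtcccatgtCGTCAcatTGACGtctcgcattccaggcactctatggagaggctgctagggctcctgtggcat
Nr4a1 (chr15:101266596-101266695, plus strand): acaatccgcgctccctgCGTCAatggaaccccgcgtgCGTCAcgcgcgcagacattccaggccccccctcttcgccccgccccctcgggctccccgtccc
Fosb (chr7:19310054-19310153, minus strand): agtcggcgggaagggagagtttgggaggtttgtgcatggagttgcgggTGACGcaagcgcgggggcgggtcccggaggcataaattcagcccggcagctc
Of 25 members with a RefSeq promoter, 15 (60.0%) held TGACG or its complement CGTCA, 2 (8.0%) the full TGACGTCA and 2 (8.0%) a CArG box, the site of serum response factor. Among the 8 called members with a promoter, 4 (50%) held TGACG, 0 the full TGACGTCA and 0 a CArG box. Over all 27025 promoters the shares for TGACG, TGACGTCA and the CArG box were 17.8%, 1.6% and 1.41%. TGACG is part of TGACGTCA, so the first count includes the second.

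Klf6, a zinc finger factor of the list, had 18 of 25 CR libraries below all Young libraries: Klf6 ran from 205 to 702 CPM (median 425) in Young libraries and from 22.8 to 452 CPM (median 157) in CR libraries (log2 fold change -1.28 ± 0.23 (SE), adjusted p = 0.000186). Fosl2, an AP-1 subunit, fell from a median of 494 to 229 CPM (-0.89, adjusted p = 0.00252), and Jund, another, from a median of 130.4 to 74.8 CPM (-0.78, adjusted p = 0.000854). The orphan nuclear receptor Nr4a1 fell from a median of 248 to 95.04 CPM (-1.29, adjusted p = 0.00909, lost without CR2). Nr4a3, of the same family, had few counts: Nr4a3 ran from 0 to 13.04 CPM (median 3.03) in Young libraries and from 0 to 3.61 CPM (median 0) in CR libraries (-3.56, adjusted p = 2.53e-05).

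Egr1 and the AP-1 subunit Fosb were far more variable between libraries. Fosb ran from 217 to 2729 CPM (median 1887) in Young libraries and from 211 to 2202 CPM (median 942) in CR libraries (log2 fold change -0.82 ± 0.25 (SE), adjusted p = 0.0335, lost without CR1, CR2 or Young1, with all cumulus groups in 1 fit and in the voom fit), so both groups held libraries at either end. The means per mouse were 2362 and 1602 CPM in the Young mice and 345, 1009 and 1121 CPM in the CR mice. Egr1 ran from 186 to 2865 CPM (median 1909) in Young libraries and from 153 to 1938 CPM (median 928) in CR libraries (-0.85, adjusted p = 0.0266, lost without CR2 or Young1, with all cumulus groups in 1 fit and in the voom fit). Fos (-0.75, adjusted p = 0.09), Jun (-0.58, adjusted p = 0.0616) and Zfp36, which speeds the decay of AU-rich mRNA (-0.72, adjusted p = 0.106), did not pass. The salt-inducible kinase Sik1 passed (-0.95, adjusted p = 0.0243, lost without CR3 or Young1 and in the voom fit). The study picked Fos, Fosb, Jun, Sik1 and Zfp36 as lower with age on a comparison that used these Young libraries, so their direction is not independent evidence.

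For the list as a whole, Middle minus Young had 0 called higher and 22 lower (median -1.60), and CR minus Middle 8 higher and 0 lower (median 0.77), where 1.46% and 3.6% of all genes tested were called. Klf6, Fosl2, Jund, Nr4a1, Egr1 and Fosb were each called lower in Middle than in Young mice (Klf6 -1.56, adjusted p = 0.0042; Fosb -1.55, adjusted p = 0.0247). CR minus Middle was 0.27, adjusted p = 0.721 for Klf6 and 0.72, adjusted p = 0.244 for Fosb. Zfp36 was higher in CR than in Middle libraries (1.49, adjusted p = 0.00525).

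Genes of the circadian clock and genes that glucocorticoids induce showed falls as well. Of 22 clock genes, 6 were called lower and 0 higher, with a median of -0.39. Per1, a repressor of the clock, fell from a median of 87.8 to 42.2 CPM (log2 fold change -0.82 ± 0.16 (SE), adjusted p = 0.000518), and 18 of 25 CR libraries were below all Young libraries. Its partner Cry2 (-0.55, adjusted p = 0.0209), the kinase gene Csnk1e (-0.45, adjusted p = 0.0199, lost without CR3), the nuclear receptor Rora (-1.08, adjusted p = 0.0407, lost without CR2 or CR3) and, as above, Nfil3 and Bhlhe40 made up the rest. In the clock list, Middle minus Young had 0 called higher and 3 lower (median -0.12), and CR minus Middle 0 higher and 0 lower (median -0.10). The E-box CACGTG, which the clock factors bind, stood in 5 of 17 promoters of the list (29.4%), in 1 of 5 of the called members (20%) and in 6.04% of all promoters. Of 17 glucocorticoid-responsive genes, 5 were lower and 1 was higher (median -0.36), and without CR2 2 were lower: Sgk1, a kinase that regulates ion transport, fell from a median of 56.1 to 24.1 CPM (-1.27, adjusted p = 4.87e-05), Tsc22d3, the leucine zipper gene GILZ, from a median of 112 to 66.8 CPM (-0.62, adjusted p = 0.0245, lost without CR2 or Young1), Pdk4, which restrains pyruvate dehydrogenase, from a median of 71.9 to 26.7 CPM (-1.15, adjusted p = 0.0157, lost without CR2) and Klf9 from a median of 13.3 to 5.29 CPM (-1.40, adjusted p = 0.025, lost without CR2 or Young1), besides Per1. Fkbp5, a co-chaperone of the glucocorticoid receptor, rose from a median of 305 to 414 CPM (0.37, adjusted p = 0.0113, lost without CR3). In the glucocorticoid list, Middle minus Young had 0 called higher and 5 lower (median -0.70), and CR minus Middle 2 higher and 0 lower (median 0.25).

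Most DNA replication genes were higher in CR. Of 50 members, 27 were called higher (54.0%) and 0 lower, 45 had a positive fold change, and the median was 0.35, against 0.08 for all genes. Without 1 of the mice other than Young2, 22 to 25 were called higher, 22 at the Young depth, 20 after the length and GC correction and 13 in the voom fit. In this list, Middle minus Young had 0 called higher and 0 lower (median 0.01), and CR minus Middle 17 higher and 0 lower (median 0.29). Among origin licensing factors Cdt1, which loads the replicative helicase, had the smallest p. Cdt1 ran from 14.3 to 42.5 CPM (median 27.8) in Young libraries and from 30.8 to 70.3 CPM (median 45.1) in CR libraries (log2 fold change 0.72 ± 0.11 (SE), adjusted p = 1.96e-05), and 15 of 25 CR libraries exceeded all Young libraries. Cdc6, its partner, rose from a median of 26.4 to 39.96 CPM (0.61, adjusted p = 0.00128).

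The helicase subunits Mcm4 (0.42, adjusted p = 0.000183), Mcm5 (0.41, adjusted p = 0.000216) and Mcm2 (0.41, adjusted p = 0.00176) rose by similar amounts. Mcm5 ran from 196 to 294 CPM (median 239) in Young libraries and from 226 to 423 CPM (median 300.5) in CR libraries, with 232 and 238 CPM in the Young mice and 407, 320.4 and 287 CPM in the CR mice on average. Of the enzymes that make nucleotides or process strands, thymidine kinase Tk1 rose from a median of 21.6 to 39.4 CPM (0.86, adjusted p = 5.17e-05), the flap endonuclease Fen1 from a median of 25.6 to 41.4 CPM (0.58, adjusted p = 3.16e-05) and the ribonucleotide reductase subunit Rrm2 from a median of 159.5 to 226 CPM (0.44, adjusted p = 0.0125, lost in the voom fit). Uhrf1, a factor in the copying of DNA methylation to new strands, rose from a median of 204 to 291 CPM (0.48, adjusted p = 0.000232). Cdc7, the kinase that fires origins, was not in the list and is named after its values were seen: beside Scara5 it was the only gene called whose 15 Young and 25 CR libraries did not overlap, at 35.8 to 57.8 CPM and 58.7 to 149.5 CPM (log2 fold change 0.81 ± 0.10 SE, adjusted p = 1.67e-06 by edgeR; 1.03 without Young2).

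The letters TTTCCCGC or TTTGGCGC, forms of the E2F site, were searched on both strands of the same 250 bases, and 2 called members that hold them are printed with the match in capitals.
Mcm5 (chr8:75109314-75109413, plus strand): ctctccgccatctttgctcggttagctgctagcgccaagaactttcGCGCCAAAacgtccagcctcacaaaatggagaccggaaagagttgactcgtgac
Cdc6 (chr11:98907967-98908066, plus strand): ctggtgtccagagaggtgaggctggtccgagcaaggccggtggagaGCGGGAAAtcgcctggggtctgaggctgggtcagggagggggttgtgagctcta
Of 39 members of the list with a promoter, 6 (15.4%) held 1 of these forms, and 366 of all 27025 promoters (1.35%). Of the 22 called members with a promoter, 2 (9.09%) held it.

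Other genes of proliferation moved the same way in smaller numbers. Of 49 mitosis genes, 7 were higher and 0 lower (median 0.15): they included Sgo1, which protects cohesion at centromeres (0.56, adjusted p = 0.00168), Anln, a scaffold of the cleavage furrow (0.38, adjusted p = 0.00394, lost without CR3), and Birc5, survivin (0.65, adjusted p = 0.00714). Of 59 core histone genes, 14 were higher and 0 lower, and 57 had a positive fold change (median 0.48). Hist1h2bj rose from a median of 13.04 to 19.9 CPM (0.65, adjusted p = 0.0209, lost in the voom fit) and Hist2h2ac from a median of 3.37 to 7.80 CPM (1.19, adjusted p = 0.000157). Histone genes are near-identical copies whose reads the counting shared between genes, so single members are uncertain, and 6 were called at the Young depth, 8 by DESeq2, 5 in the voom fit, 4 without CR2 and 28 without CR3. Of 39 DNA repair genes, 6 were higher and 0 lower, such as Exo1 (0.53, adjusted p = 0.00096) and Rad54l (0.38, adjusted p = 0.000503), which act in homologous recombination. The voom fit called 2 higher, and 3 were called after the length and GC correction or without Young1.

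Inhibitors of the cell cycle and targets of p53 moved both ways, with 5 of 24 higher and 3 lower. Rises were seen in the p53 targets Zmat3, from a median of 23.3 to 48.4 CPM (log2 fold change 0.98 ± 0.14 (SE), adjusted p = 9.11e-06), Ccng1, cyclin G1, from a median of 72.2 to 124 CPM (0.75, adjusted p = 0.000935, lost without CR3) and Aen, an apoptotic nuclease, from a median of 14.3 to 24.4 CPM (0.79, adjusted p = 0.00164). Cdkn1b, the inhibitor p27 (-0.39, adjusted p = 0.0106), Gadd45b (-1.39, adjusted p = 0.0102) and Trp53inp1 (-0.86, adjusted p = 0.0439, lost without CR1 or CR2 and in 3 other alternatives) fell.

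Chaperones of the heat shock response rose in 8 of 18 members and fell in 1 (median 0.18); 5 were higher without CR2 and in the voom fit. Hsph1 is a nucleotide exchange factor for HSP70. Hsph1 ran from 118 to 293 CPM (median 168) in Young libraries and from 194 to 448 CPM (median 316) in CR libraries (log2 fold change 0.88 ± 0.10 (SE), adjusted p = 3.36e-07), and 16 of 25 CR libraries exceeded all Young libraries. The constitutive HSP70 gene Hspa8 rose from a median of 1289 to 1631 CPM (0.41, adjusted p = 0.000125) and the HSP90 co-chaperone Chordc1 from a median of 50.4 to 76.2 CPM (0.62, adjusted p = 6.33e-05). The inducible HSP70 genes Hspa1b (1.38, adjusted p = 0.00261) and Hspa1a (1.09, adjusted p = 0.0276, lost without CR2, CR3 or Young1, after the length and GC correction and in the voom fit) are near-identical copies at low levels. Hsp90ab1 fell (-0.24, adjusted p = 0.0173, lost without CR2). In the heat shock list, Middle minus Young had 0 called higher and 3 lower (median -0.16), and CR minus Middle 9 higher and 0 lower (median 0.36). For Hsph1, Middle minus Young was -0.06, adjusted p = 0.877 and CR minus Middle 0.93, adjusted p = 1.61e-07. For Hspa8 these were -0.40, adjusted p = 0.0147 and 0.81, adjusted p = 5.55e-11.

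Genes of the integrated and endoplasmic reticulum (ER) stress response moved both ways, with 6 of 35 higher and 5 lower. Without CR2 0 were higher, without CR3 11, and 2 in the voom fit and at the Young depth. The transcription factors Atf4, from a median of 204 to 112 CPM (log2 fold change -0.81 ± 0.12 (SE), adjusted p = 1.08e-05), and Ddit3, CHOP, from a median of 19.8 to 9.62 CPM (-0.99, adjusted p = 0.00251), fell, as did Herpud1 of ER-associated degradation (-0.80, adjusted p = 0.00163). The lectin chaperones Calr (0.30, adjusted p = 0.0411, lost without CR1 or CR2 and in 5 other alternatives) and Canx (0.28, adjusted p = 0.0475, lost without CR1 or CR2 and in 5 other alternatives), the disulfide isomerase Pdia3 (0.39, adjusted p = 0.00908, lost without CR2) and Sdf2l1 (0.71, adjusted p = 0.0191, lost without CR2 and in the voom fit) rose. Atf4 was called between Young and Middle mice as well (-0.94, adjusted p = 0.0391).

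Nearly all protein-coding transcripts of the mitochondrial genome were lower in CR. Of 13 protein genes, 12 were called lower and 0 higher (median -0.39), and all 13 were lower in each CR mouse than in both Young mice on average. mt-Nd5 encodes a subunit of complex I. mt-Nd5 ran from 3541 to 5697 CPM (median 4404) in Young libraries and from 2137 to 5312 CPM (median 3001) in CR libraries (log2 fold change -0.48 ± 0.10 (SE), adjusted p = 0.000908), and 21 of 25 CR libraries were below all Young libraries. The complex III subunit mt-Cytb fell from a median of 1591 to 1056 CPM (-0.54, adjusted p = 0.00135, lost after the length and GC correction) and the complex IV subunit mt-Co1 from a median of 9814 to 7716 CPM (-0.30, adjusted p = 0.0188, lost without CR1 or CR3 and after the length and GC correction). After the length and GC correction, 3 of 13 were called and the median was -0.20. In this list, Middle minus Young had 0 called higher and 1 lower (median -0.24), and CR minus Middle 0 higher and 0 lower (median -0.15). Of 78 nuclear genes of the respiratory chain, 5 were called lower (10 by DESeq2), 0 higher, and the median was -0.08. All reads of the mitochondrial genome made up 8.95% of counts in the median Young library (7.55% to 13.2%) and 8.05% in the median CR library (5.82% to 12.8%).

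Of 82 cytoplasmic ribosomal protein genes, 18 were lower and 1 was higher (median -0.12). The falls were small, as in Rpl4 (-0.34, adjusted p = 0.000397), Rpl23a (-0.40, adjusted p = 0.000171) and Rps15 (-0.35, adjusted p = 0.000546), and Rpl29 rose (0.36, adjusted p = 0.0134, lost without CR3 and in the voom fit). Without 1 of the mice other than Young2, 5 to 32 were called lower, the fewest without CR2 and the most without CR3. Many have pseudogene copies that share reads. Of 78 mitochondrial ribosomal proteins, 1 was higher and 1 lower.

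Of 28 genes of insulin, IGF and FOXO signalling, 1 was higher and 2 lower, and of 32 of the mTOR pathway 1 and 3. Foxo3, a factor that holds follicles quiescent in oocytes, fell from a median of 123 to 85.1 CPM (log2 fold change -0.60 ± 0.15 (SE), adjusted p = 0.00747), and the kinase gene Akt1 rose from a median of 102 to 130.3 CPM (0.35, adjusted p = 0.000805, lost after the length and GC correction). Mtor rose (0.44, adjusted p = 0.0036), while Fnip1, a folliculin partner in lysosomal signalling, from a median of 122 to 55.1 CPM (-1.08, adjusted p = 1.01e-05), the mTORC2 subunit Rictor (-0.50, adjusted p = 0.00787, lost without CR2) and Sesn3, a sestrin (-0.54, adjusted p = 0.00598), fell. Of 10 sirtuin and related genes, Sirt1 fell (-0.36, adjusted p = 0.0156, lost without CR2) and Sirt7 rose (0.52, adjusted p = 0.0305, lost without CR1, CR2 or Young1 and in 3 other alternatives). Of 35 autophagy genes 3 were higher, none of them without CR2, and 4 lower, among the latter the cargo receptor Sqstm1, from a median of 374 to 273 CPM (-0.43, adjusted p = 0.000192), and Gabarapl1 (-0.75, adjusted p = 0.00453).

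In energy metabolism, the glucose-trapping Hk2 fell from a median of 224 to 132 CPM (-0.74, adjusted p = 0.0128, lost without CR2) and the monocarboxylate transporter Slc16a1 from a median of 475 to 309 CPM (-0.43, adjusted p = 0.0239, lost without CR2 and in the voom fit), 2 of 21 glycolysis genes. Of 25 genes of fatty acid oxidation, 1 was higher and 3 lower. Of 27 genes of cholesterol synthesis and uptake, 2 were higher and 0 lower (median 0.25), among them the sterol enzyme Lss (0.61, adjusted p = 0.0469, lost without CR1 or CR2 and in 5 other alternatives). Without CR3 11 were higher (median 0.50), and without CR2 1 was (median -0.02). Of 29 antioxidant genes, 4 were higher and 4 lower. Txnip inhibits thioredoxin and responds to glucose. Txnip ran from 461 to 833 CPM (median 611) in Young libraries and from 70.2 to 617 CPM (median 224) in CR libraries (log2 fold change -1.27 ± 0.22 (SE), adjusted p = 0.00016), and 22 of 25 CR libraries were below all Young libraries. Gsr, glutathione reductase (0.49, adjusted p = 0.00629), rose and the secreted peroxidase Gpx3 fell (-1.10, adjusted p = 0.00301).

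Of the 15 cumulus and granulosa markers, 1 was called, Foxl2, a factor that keeps granulosa identity, which rose from a median of 36.3 to 64.9 CPM (log2 fold change 0.74 ± 0.15 (SE), adjusted p = 0.000673). Of 25 genes of AMH, inhibin and BMP signalling, Bmpr1b, a receptor for oocyte-derived ligands, fell from a median of 358 to 224 CPM (-0.66, adjusted p = 0.000518) and 24 did not pass. Of 15 genes of gonadotropin and steroid receptors and related factors, 3 rose, Foxl2 and Nr3c1 among them, and 0 fell. Of 18 cumulus expansion genes tested, 3 were higher and 4 lower, and in the voom fit 0 were higher and 5 lower. Adamts1, a protease of the expanded matrix, fell from a median of 192 to 102 CPM (-0.84, adjusted p = 0.000508), Edn1, endothelin 1, from a median of 14.9 to 0 CPM (-2.62, adjusted p = 0.00188) and Prdm1 from a median of 9.30 to 2.87 CPM (-1.79, adjusted p = 0.00357). Tnfaip6, which modifies hyaluronan, fell between low levels, from a median of 1.51 to 0 CPM (-1.94, adjusted p = 0.0116), and Runx2 rose from a median of 2.80 to 6.10 CPM (1.35, adjusted p = 0.00787, lost without CR2 and in the voom fit). Of 15 genes of meiotic arrest and gap junctions, the connexin gene Gjc1 fell (-1.96, adjusted p = 0.00199) and 0 rose.

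Steroid genes that rose were Cyp17a1, the androgen-making enzyme of theca cells, from a median of 0.934 to 11.2 CPM (1.81, adjusted p = 0.0204, lost without CR3), Scarb1, which takes up HDL cholesterol (0.42, adjusted p = 0.0205, lost without CR2), and Star, which moves cholesterol into mitochondria (1.15, adjusted p = 0.0368, lost without CR1 or Young1, with all cumulus groups in 1 fit and in the voom fit), 3 of 14 members, and Fdxr fell (-0.54, adjusted p = 0.0415, lost without CR1 or CR3 and in the voom fit). Of 10 theca and stroma markers tested 3 were called higher (Cyp17a1, Star and Col3a1), and the list summed to 12.1 to 78.7 CPM (median 38.2) in Young and 23.6 to 198.1 CPM (median 53.5) in CR libraries. Of 12 mural granulosa and luteal markers 4 were higher, with sums of 343 to 1031 CPM (median 544) and 462 to 1444 CPM (median 665). Endothelial markers summed to medians of 13.6 and 11.3 CPM, immune markers to 5.70 and 9.48 CPM and red blood cell markers to 47.2 and 29.8 CPM. Only 5 of 8 endothelial, 5 of 10 immune and 1 of 5 red blood cell markers had counts in enough libraries to be tested. No marker of these lists was at 0 in all 40 libraries, and the 1 immune marker called was Cd68. The voom fit called 1 theca and 1 mural marker higher, and without CR2 the mural markers called were 2. In the mural list, Middle minus Young had 2 called higher and 0 lower (median 1.18), and CR minus Middle 1 higher and 5 lower (median -1.10). In the theca list, Middle minus Young had 1 called higher and 0 lower (median 1.39), and CR minus Middle 1 higher and 2 lower (median -1.20). In the steroid list, Middle minus Young had 0 called higher and 0 lower (median 0.21), and CR minus Middle 1 higher and 2 lower (median -0.24). In the second set, 6 mural, 3 theca and 5 steroid genes were called higher at 9 months and 0 lower, where 348 of all 23024 genes tested were called higher and 93 lower. These lists share members such as Star, so their counts can overlap. The part of other cells in the steroid and matrix genes was not tested. Of 28 genes of the extracellular matrix and its remodelling, 7 were higher and 1 lower, and the voom fit called 2 higher and 2 lower. Mmp14 encodes a membrane protease. Mmp14 ran from 4.75 to 28.9 CPM (median 14.3) in Young libraries and from 15.3 to 46.4 CPM (median 35.5) in CR libraries (log2 fold change 1.12 ± 0.17 (SE), adjusted p = 3.35e-05), and the laminin chain Lamc1 rose as well (0.42, adjusted p = 0.00424). In the Hippo pathway 3 of 20 genes were higher and 2 lower, in cytokine and interferon signalling 1 of 24 and 3, in WNT signalling 1 of 20 each way and in the proteasome 2 of 39 higher and 0 lower.

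The second set of samples gave a comparison between ages that shares no library with the ones above: 24 cumulus libraries at 2 months against 16 at 9 months, all fed AL, from 5 and 4 mouse labels. There 441 of 23024 genes (1.92%) were called, 348 higher and 93 lower at 9 months. Of the 738 genes called lower in CR and tested there, 398 (53.9%) were lower at 9 months, against 45.7% of all genes tested in both. Of these 738, 8 were called lower at 9 months and 8 were called higher. Of the 1189 called higher in CR, 688 (57.9%) were higher at 9 months, against 54.3% of all, and 46 were called higher and 6 lower. Over all 22343 genes tested in both, 335 were called higher and 91 lower. Of the 12 largest rises 0 and of the 12 largest falls 1 passed there, and 11 of the rises and 9 of the falls had the same sign as between Young and CR. The 1 that passed was Cited2, which was higher at 9 months (1.02, adjusted p = 0.00466). For Scara5 the log2 fold change was 1.13, adjusted p = 0.162, for Lrrtm3 -0.75, adjusted p = 0.178, for Cd36 -0.20, adjusted p = 0.735, for Klf6 -0.06, adjusted p = 0.903 and for Txnip -0.27, adjusted p = 0.322.

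List medians of the second set are given for the same lists, and the difference between the sets was not tested. Medians of 9 minus 2 months were -0.17 for immediate early genes with 0 of them called, -0.11 for DNA replication, -0.42 for core histones, -0.26 for heat shock and 0.47 for mitochondrially encoded proteins, while that of cytoplasmic ribosomal proteins was -0.17. In 4 of these lists the median had the opposite sign of that between Young and CR.

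**Figure D5:**
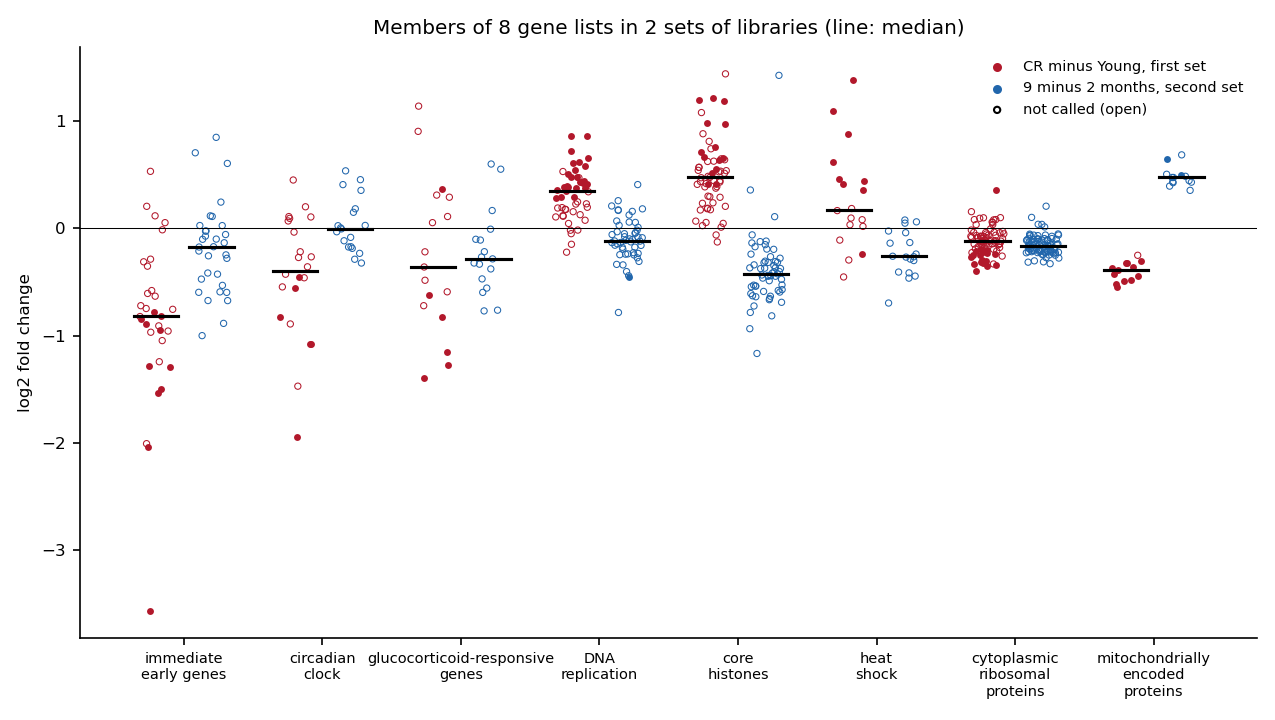
Each point is a member of 1 of 8 gene lists, with its log2 fold change between CR and Young libraries of the first set (red) or between 9 and 2 months in the second set (blue), filled where the gene was called; lines are medians. DNA replication, core histones and heat shock lie above 0 in red and below 0 in blue, mitochondrially encoded proteins the reverse, and immediate early genes have medians of -0.82 and -0.17.

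A few genes behaved alike in both sets. The X-linked genes Luzp4, Gm15127, Gm15109 and Gm15093, whose copies share reads, and Tia1, an RNA-binding protein of stress granules, were picked by the study as higher with age on these Young libraries, so the first comparison is not independent evidence. Luzp4 had 0 counts in the 15 Young libraries and 94 in the 25 CR libraries, at least 11.4-fold higher when 3 counts over the group are taken as the floor. Gm15109 (46 counts) and Gm15093 (49 counts) were at least 5.58-fold and 5.94-fold higher on the same floor. Gm15127 had 1 and 112 counts, a ratio of 40.7 with an exact 95% interval of 7.16 to 1623 that covers counting error only. Tia1 rose from a median of 85.5 to 125 CPM (log2 fold change 0.53 ± 0.12 (SE), adjusted p = 0.00258). In the second set all 5 were called higher at 9 months, Tia1 by 0.71, adjusted p = 0.0236.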

How the data were processed

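RamDA-seq copies total RNA along the whole transcript. Per the labels and the study's methods, the authors used Fastq-mcf for trimming, HISAT2 2.0.5 for mapping to GRCm38 and featureCounts 1.5.1 for counts per GENCODE gene, with multi-mapped reads included. The deposited expected count values were not whole for 36.9% of nonzero entries and were rounded here. The authors also deposited RPKM values, used only in an alternative. Those of CR libraries match the deposited counts in 0.854% of cases (within 0.1%) and those of Young libraries in 100%, so the RPKM values of the groups were not made from these counts in the same way. RPKM of the second set were not used. Reads carry no molecular identifiers, so intervals and floors cover counting error only. Depth was 986123 to 2501005 counts per library.

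Libraries were grouped by their titles. A gene was tested if 5 or more of the 40 libraries had a count for it. Young and CR were compared with edgeR 4.0.16 in R 4.3.3 (TMM, quasi-likelihood test, Benjamini-Hochberg adjustment, false discovery rate 5%), and the script was tested on simulated data first. All adjusted p values are from edgeR over all genes tested. CPM values are TMM-normalized. The other settings tried were the likelihood ratio test of edgeR, DESeq2 1.42.0, its size factors, filterByExpr, no filter, all cumulus groups in 1 fit, counts summed per mouse, limma-voom (limma 3.58.1) with mouse as random effect, CR counts drawn down to the Young depth, a length and GC correction, and each mouse left out. Principal components used numpy 2.4.6. Symbols and coordinates are from GENCODE vM21 (43512 of 43633 identifiers matched), promoters from RefSeq. The study removed 1 pair of samples without naming it. A complex of a Middle mouse whose oocyte library correlated more with cumulus (r = 0.937) than with oocyte libraries (r = 0.744) was taken for it and is not used here.

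Genes named were the 12 largest rises and falls at a mean of 10 CPM that passed also without each mouse, up to 4 called members of each list, and genes the study named. Since 2 genes met the first part, the 12 largest rises and falls among 630 genes that passed without each mouse but Young2, kept their sign without it and had mouse means that did not overlap were added after the values were seen. Some list members past 4 are named also after their values were seen. Results for some list members are not reported here. Members and lists were chosen with earlier results of these data known.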

Additional observations from a re-analysis of the deposited data

How the results depend on the processing

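Calls rested on 2 Young and 3 CR mice. No paired analysis was possible because no mouse or complex gave libraries to both groups. Between the fits without 1 mouse, the count of genes called ranged from 2 (without Young2) to 2784 (without CR3), genes higher in CR from 0 to 1564 and genes lower in CR from 2 to 1220. Counts summed per mouse gave 0 calls, 0 higher and 0 lower. The voom fit with the mouse as a random effect gave 532 higher and 1219 lower. In all other alternatives the 3 counts stayed within 1.5 times those reported, from 1723 to 2489 calls in all. The split still moved, with 1038 higher and 1039 lower by filterByExpr, 1001 and 924 at the Young depth, and 921 and 802 after the length and GC correction. With all cumulus groups in 1 fit it was 1584 and 905. The PC1 difference of 16.2 had p = 0.132 and became 6.08 with p = 0.036 on log10(RPKM + 1), whose values match the counts in Young but not in CR libraries. Without 1 mouse it ranged from 6.08 to 27.99 (p = 0.0364, without CR3), and that of PC2, 41.8, from 18.7 (p = 0.254, without Young2) to 55.7. Over mouse means the PC2 difference was 46.2 (exact p = 0.2). In the second set the 441 calls became 2 on counts summed per mouse. The fits without a mouse and per mouse hold fewer samples, and the cause of these changes was not tested. Of 140 genes named by rule and called, all kept their sign in every alternative that gave a value. Of these, 138 lost the call without Young2, 26 without CR2, 24 in the voom fit and 7 after the length and GC correction. The largest rises and falls among them were chosen for passing without each mouse but Young2, so the tally does not measure all calls. Of all 1994 genes called, 1125 passed again in the same direction without CR2 and 1142 in the voom fit. In all 4 fits without 1 mouse other than Young2, 817 did. Depth was higher in every CR library than in any Young, Middle or Old library, and 4 of the 140 calls were lost at the Young depth. Libraries of 1 mouse are not independent.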

Other observations

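RamDA-seq also reads RNA without a poly(A) tail, and of 17 long noncoding RNAs tested, 4 were called higher and 4 lower in CR cumulus cells (median log2 fold change 0.14). The 4 called higher were Snhg3 (1.02, adjusted p = 0.000221), Snhg11 (1.33, adjusted p = 0.000935), Tug1 (0.30, adjusted p = 0.00583, lost without Young1) and Rmrp (0.36, adjusted p = 0.0336, lost without CR2 or CR3 and in the voom fit). The 4 called lower, which became 1 without CR2, are described next. Xist (chrX:103460366-103483254) coats the inactive X chromosome. Xist ran from 261 to 1186 CPM (median 783) in Young libraries and from 181 to 868 CPM (median 321) in CR libraries (log2 fold change -0.83 ± 0.20 (SE), adjusted p = 0.00474 by edgeR), with means of 692 and 735 CPM in the Young mice and 389.8, 333 and 456 CPM in the CR mice. The maternally expressed RNAs Meg3 (chr12:109541001-109571726), Rian (chr12:109603940-109661716) and Mirg (chr12:109729764-109749460) lie next to each other in 1 imprinted region of GRCm38. Rian fell from a median of 575 to 218 CPM (-1.13, adjusted p = 0.0067, lost without CR2), Meg3 from a median of 213 to 102 CPM (-0.81, adjusted p = 0.0447, lost without CR1 or CR2, with all cumulus groups in 1 fit and in the voom fit) and Mirg from a median of 33.4 to 15.5 CPM (-0.93, adjusted p = 0.0295, lost without CR1 or CR2 and in the voom fit). Xist, Rian, Meg3 and Mirg did not pass between Young and Middle mice (Middle minus Young, Xist 0.02, adjusted p = 0.976; Rian 0.21, adjusted p = 0.783) and were lower in CR than in Middle libraries (CR minus Middle, Xist -0.86, adjusted p = 0.0208; Rian -1.35, adjusted p = 0.00168). These comparisons share libraries. In the second set 9 minus 2 months was 0.04, adjusted p = 0.94 for Xist and 0.01, adjusted p = 0.992 for Rian.

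By type of gene, 23 of 432 small nucleolar RNAs tested were called higher in CR and 0 lower, a share near the 4.99% of all genes that were called higher. Of the 432, 305 were above 0, with a median log2 fold change of 0.39. In the second set their median was 0.40, and 1 of the 23 was called. They lie in introns of host genes, whose reads they can share. With the length and GC correction 27 were called higher, and 22 at the Young depth. Of 3421 processed pseudogenes, 29 were called higher and 74 lower, against 4.99% and 3.09% of all genes; they share reads with their parent genes. Among cytokine genes Il6 rose from a median of 5.29 to 15.9 CPM (1.61, adjusted p = 0.0275, lost without CR2 and in the voom fit) and Stat3, a transcription factor downstream of its receptor, fell from a median of 165 to 83.5 CPM (-1.005, adjusted p = 6.22e-05). The glucocorticoid receptor gene Nr3c1 rose from a median of 6.81 to 18.9 CPM (1.37, adjusted p = 0.00208, lost in the voom fit). Of the 17 glucocorticoid-responsive genes, 5 were lower and 1 higher, against 3.09% and 4.99% of all genes, and 2 were lower without CR2. A link between the receptor gene and these genes was not tested.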
